A study of Mus musculus with 12 samples.

Results

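The response of livers without ATF6a to tunicamycin (TM) was taken from 6 of the 12 arrays of the series: the 3 titled Atf6a-/- TM and the 3 titled Atf6a-/- vehicle. Samples were assigned by the genotype and treatment in their titles. The comparison ran over 45037 probe sets, all those that are not AFFX controls, and 18193 genes were described by 1 probe set each, that with a single symbol and, where a gene had several, the brightest on average across the 12 arrays. At an adjusted p under 0.05 and a change over 1.5-fold (limma, Benjamini-Hochberg over all 45037 probe sets), 9480 probe sets changed, or 21% of those tested, 5345 of them upward and 4135 downward. By gene, 2765 mRNAs rose (15.2%) and 2337 fell (12.8%). On the scale as deposited, most ER chaperones, tRNA synthetases and ribosomal proteins rose, while most genes of fatty acid oxidation, the urea cycle, coagulation and complement fell, as did most liver transcription factors. Single metabolic genes fell by more than 100-fold.

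The 6 Atf6a-/- mice had the Atf6a genotype -/-, and the 6 wild-type animals of the series (Atf6a +/+, 3 TM and 3 vehicle) were used to test whether the response differed between genotypes, and entered the choice of probe set, the shared estimate of spread and an ordering of genes by brightness given below. Animals received 1 mg/kg tunicamycin in 150 mM dextrose by intraperitoneal injection, or the dextrose alone, and whole liver was taken 34 h later. The titles and the protocol give 34 h, whereas the source field of the same samples says 8 h, and 34 h is used here. The mice were of variable age and sex, neither of which is given per animal, and the part of Atf6 that was deleted is not stated in the labels. Each array was hybridised with RNA from 1 animal, so that n = 3 in every group, and values below are log2 RMA levels in animals 1, 2 and 3 of a group in that order. Differences are TM minus vehicle on the log2 scale with the standard error (SE) of the fit.

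Tunicamycin blocks the first step of N-linked glycosylation, so that newly made glycoproteins misfold in the endoplasmic reticulum (ER). Cells answer through the unfolded protein response (UPR), which has 3 sensors in the ER membrane: IRE1, which splices the mRNA of XBP1; PERK, which slows translation and thereby favours ATF4 and CHOP; and ATF6, which is cut in the Golgi to release a factor that activates chaperone genes. The hepatocyte secretes most plasma proteins and is therefore rich in ER, and the liver also carries out gluconeogenesis, lipoprotein assembly, bile acid synthesis and detoxification.

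The Atf6 mRNA itself was measured by 3 probe sets. The brightest gave 6.88, 6.85 and 6.60 in Atf6a-/- vehicle livers against 8.54, 8.42 and 8.49 in wild-type vehicle livers, and in Atf6a-/- TM livers it read 9.60, 9.81 and 9.23. All 3 probe sets rose in Atf6a-/- TM livers, by 2.77 ± 0.15, 3.88 ± 0.14 and 2.43 ± 0.11. The rise was larger than in wild-type livers at the brightest probe set by 1.75 ± 0.22 (adjusted p = 0.00039). Since it is not known whether these probes lie inside the deleted part, the level does not check the genotype, which is taken from the labels.

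The labelled tissue was checked against 8 hepatocyte markers, all of which were bright in Atf6a-/- livers: vehicle means ran from 12.94 for Tat to 14.75 for Alb, and TM means from 10.48 for Tdo2 to 14.27 for Alb. Within groups the animals were close, with a median SD over genes of 0.143 in vehicle and 0.146 in TM livers. Animal 1 of both Atf6a-/- groups had a high level of Xist, 12.39 and 12.29, against 5.37 to 6.37 in the other 4. Of the wild-type animals, vehicle animal 1 was high (12.19) and no TM animal was (5.56 to 6.68), so that wild-type responses and interactions compare groups unlike in Xist. With Xist as a covariate 2604 genes had an interaction, against 2594 without it. These totals do not show whether the same genes were called, which was not tested. The covariate also takes the Xist effect to be the same in every group, which cannot be checked in the wild-type TM group. The hybridisation spike-ins averaged 9.14 to 9.36 on vehicle arrays and 8.78 to 8.82 on TM arrays, and the difference between 3' and 5' actin probe sets was 1.08 to 1.23 on the former and 0.88 to 1.00 on the latter. As deposited, the median difference of all genes was -0.01 and 54.2% of called genes rose. With arrays shifted so that Btf3 and Ppia, the latter read by a probe set it shares with other symbols, were level, the median was -0.53 and 15.8% rose, and with the spike-ins level it was 0.46 and 81.8% rose. Btf3, a reference gene of the study, itself went from 10.37, 10.17 and 10 to 11.07, 11.33 and 11.52. No called gene was called in the opposite direction under either shift. In whole liver, a fall in an mRNA cannot be told apart from a fall in the number of cells that make it.

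**Figure D1:**
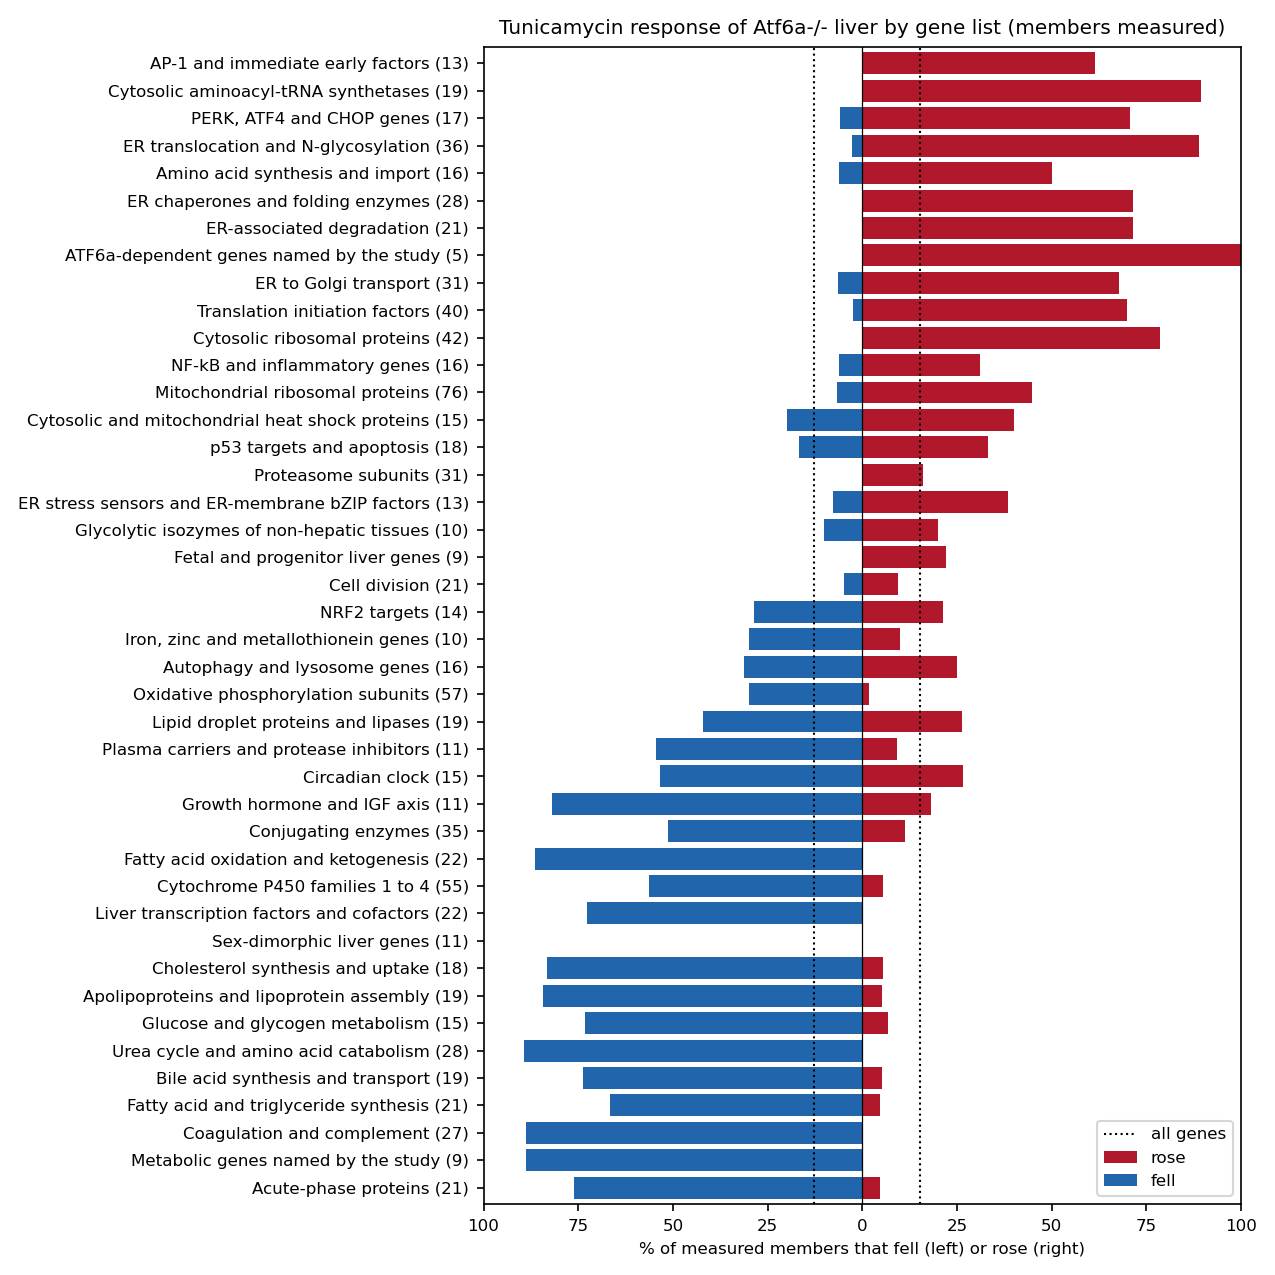
Each bar gives, for 1 gene list of the number of measured genes in parentheses, the percentage of members that fell (left) and rose (right) in Atf6a-/- TM against Atf6a-/- vehicle livers (n = 3 each), with the lists in order of their median log2 difference and dotted lines at the percentages over all genes, 12.8 and 15.2. Lists of protein synthesis and ER function extend to the right and those of plasma proteins and lipid, bile acid and amino acid metabolism to the left, on the scale as deposited. The dotted lines are not matched for brightness, and a larger share of bright genes fell.

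Among 13 ER stress sensors and related membrane-bound factors, 5 rose (Atf6, Atf6b, Eif2ak3, Creb3l2 and Mbtps2) and 1 fell (median 0.17, which became -0.35 with the Btf3 and Ppia shift). Atf6b, the paralog of the deleted gene, stood at 6.60, 6.17 and 6.21 in vehicle and 7.62, 7.97 and 7.37 in TM livers, with all TM animals above all vehicle animals (1.33 ± 0.18, 2.51-fold, adjusted p = 0.000116). Eif2ak3, which encodes PERK, rose by 2.13 ± 0.31 (4.37-fold). Creb3l3, a liver factor of the same membrane-bound family that activates lipid and acute-phase genes, was the member that fell, from 11.24, 11.32 and 11.38 to 10.53, 10.32 and 10.49 (adjusted p = 0.00033). Its wild-type difference was -0.01, and the responses differed by -0.86 (adjusted p = 0.0127). With the spike-in shift its fall was not called (-0.39). Total Xbp1, which the arrays cannot divide into spliced and unspliced forms, differed by -0.14 ± 0.19 and was not called, and its sign turned without animal 1 (0.12). With the Btf3 and Ppia shift Xbp1 was called as a fall (-0.66).

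ER chaperones and folding enzymes rose as a group without ATF6a. Of 28 measured, 20 rose and none fell, with a median difference of 1.13 against -0.01 over all genes. Hspa5, which encodes the ER chaperone BiP, read 12.62, 12.45 and 11.95 in vehicle and 14.25, 14.60 and 14.63 in TM livers, a 4.45-fold rise (2.15 ± 0.16, adjusted p = 1.23e-06) with the groups well apart. Sdf2l1, a partner of BiP, rose from 7.53, 7.89 and 7.72 to 11.62, 11.95 and 11.70 (16.5-fold). Fkbp11, an ER prolyl isomerase, had the largest difference on the list, from 6.69, 7.79 and 7.66 to 12.32, 12.70 and 12.44 (34.4-fold, 5.10 ± 0.40). Hsp90b1, the ER form of HSP90, rose 2.03-fold, a call lost with the Btf3 and Ppia shift (0.51), and so were those of Pdia4 and Dnajb11. Canx, which encodes calnexin, was among the 8 not called, at 11.77, 11.75 and 11.48 against 11.87, 12.11 and 12.01 (0.33 ± 0.13, adjusted p = 0.0939).

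The chaperone response differed from the wild-type one for 8 genes, 7 of them lower in Atf6a-/- livers (Erp44, Sil1, Pdia3, Dnajb11, Pdia4, Ero1b and Creld2) and 1 higher (Ero1a). In the whole table, 7.56% of genes had a higher and 6.69% a lower response in Atf6a-/- livers by the same interaction test. In wild-type livers 27 of the 28 rose, where 3.45% of all genes rose and 3.86% fell. Pdia4, a protein disulphide isomerase, went from 9.35, 9.24 and 9.23 to 10.17, 10.32 and 10.07 in Atf6a-/- livers (0.91 ± 0.15), against a wild-type difference of 2.85, and the difference between responses was -1.94 ± 0.21 (adjusted p = 0.000186). Dnajb11, a BiP co-chaperone, rose by 0.87 against 2.41 (interaction -1.54, adjusted p = 0.00151), and Creld2, a secreted ER stress protein, by 2.81 against 5.15 (interaction -2.34, adjusted p = 0.00107). The Hspa5 interaction was not called (0.20 ± 0.23, adjusted p = 0.716). The 5 genes that the study names as dependent on ATF6a all rose in Atf6a-/- livers, with a median of 1.02, and 3 of them rose less than in wild-type livers (Derl3, Dnajb11 and Pdia4). These are ATF6a targets known from earlier work that the study names as examples from these same arrays, so their count is not independent evidence, and 2 of the 5 were called with the Btf3 and Ppia shift.

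ER-associated degradation, which returns misfolded proteins to the cytosol for the proteasome, had 15 of 21 members risen and none fallen (median 1.02). Derl3, part of the retrotranslocation channel, rose from 7.49, 6.26 and 6.19 to 10.90, 10.69 and 10.90 (18.2-fold, adjusted p = 5.78e-07), still below its wild-type response of 6.04 (interaction -1.85, adjusted p = 0.0115). Syvn1, the ubiquitin ligase HRD1, rose 6.79-fold, and its interaction was not called (-0.29 ± 0.38, adjusted p = 0.767). Herpud1, which holds the ligase complex together, was at 12.65, 12.52 and 12.17 in vehicle and 11.49, 11.59 and 12.21 in TM livers, with overlapping groups (-0.68 ± 0.24, adjusted p = 0.0517). Its wild-type difference was 0.54, and the interaction was -1.22 (adjusted p = 0.0391).

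Sequences upstream of these genes are shown because ATF6 acts through the ER stress response element (ERSE), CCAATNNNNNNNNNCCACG, in which the factor NF-Y contacts the first box and ATF6 the last. RefSeq promoters (GRCm38.p6, 250 bases before the gene start) were searched on both strands for 14452 of the genes measured. In the lines below the element is in capitals, gap bases included, with 20 bases of flank, each read 5′ to 3′ on the strand of its gene.
Hspa5, chr2:34772005-34772063, plus strand: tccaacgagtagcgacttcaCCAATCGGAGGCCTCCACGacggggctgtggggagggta
Pdia6, chr12:17266471-17266529, plus strand: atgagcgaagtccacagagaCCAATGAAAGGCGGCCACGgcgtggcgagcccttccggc
Derl3, chr10:75893222-75893280, plus strand: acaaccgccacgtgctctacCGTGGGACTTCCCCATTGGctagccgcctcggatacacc
Syvn1, chr19:6046512-6046570, plus strand: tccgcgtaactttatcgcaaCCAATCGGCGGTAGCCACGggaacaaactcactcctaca
Canx, chr11:50325780-50325838, minus strand: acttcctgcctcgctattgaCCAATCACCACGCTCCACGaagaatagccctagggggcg
Creld2, chr15:88819500-88819558, plus strand: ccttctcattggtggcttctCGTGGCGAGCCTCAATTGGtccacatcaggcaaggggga
Alg12, chr15:88819500-88819558, minus strand: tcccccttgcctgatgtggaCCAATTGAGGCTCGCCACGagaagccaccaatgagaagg

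The element was found in 35 of 27025 RefSeq promoters (0.13%) and in 19 of the 14452 measured genes searched (0.131%). Of those 19, 11 rose in Atf6a-/- TM livers, 1 fell (Acacb, a carboxylase that makes malonyl-CoA at mitochondria, by 2.94) and 7 were not called, Canx among them. It was present upstream of 8 of 24 chaperone genes (33.3%), of 0.478% of all risen genes and of 0.0535% of fallen genes. Hspa5 and Pdia6, a disulphide isomerase, carry it in the same orientation, and rose by 2.15 and 1.91. Creld2 and Alg12, a mannosyltransferase of the glycan precursor, are read outward from the same 59 bases. Both rose, Creld2 by 2.81 and Alg12 by 2.99, but against wild-type livers the Creld2 response was smaller and the Alg12 response larger, by 0.99 (adjusted p = 0.0134). A match to letters is a description and was not tested as a binding site. The core of the XBP1 site, TGACGTGG, was in 0.865% of the 14452 genes searched, 1.61% of risen and 0.535% of fallen genes. The second ER stress element, ATTGGNCCACG, was in 0.0484%, 0.13% and 0.0535% of the same classes.

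The machinery that brings proteins into the ER and glycosylates them also rose, with 32 of 36 members risen and 1 fallen (median 1.30). Dpagt1, the enzyme that tunicamycin inhibits, went from 8.72, 8.65 and 8.78 to 10.54, 10.60 and 10.53, with the groups apart (1.84 ± 0.08, 3.57-fold, adjusted p = 2.98e-08). Srprb, the membrane anchor of the signal recognition particle receptor, rose 8.63-fold and Alg12 7.95-fold. Alg1, which adds the first mannose, was the member that fell, from 7.65, 7.65 and 7.72 to 6.56, 6.72 and 6.68 (-1.02 ± 0.12), where its wild-type difference was 0.37 (interaction -1.40, adjusted p = 0.00031), a call lost with the spike-in shift (-0.54). Of 31 genes of ER to Golgi transport, 21 rose and 2 fell (median 0.99; 13 rose with the Btf3 and Ppia shift). Sec23b, a coat protein of outgoing vesicles, rose from 9.31, 9.02 and 8.65 to 11.45, 11.37 and 11.39 (5.31-fold). Kdelr3, which retrieves escaped chaperones, went from 4.45, 4.44 and 4.61, within the dim range of the arrays, to 9.14, 8.91 and 8.94. No fold is given for genes whose lower group averaged under 4.71, the highest median of any array. The members that fell were Sec24a and Sar1b, a GTPase needed to export lipoprotein particles (12.49, 12.26 and 11.89 to 10.80, 10.95 and 11.19). Sec24a fell by 0.7. Its call was lost with the spike-in shift (-0.22), without animal 1 of both groups (-0.48) and with the probe sets of a gene averaged (-0.56).

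Of 17 genes of the PERK, ATF4 and CHOP pathway, 12 rose and 1 fell, with a median of 1.52. Nupr1, a stress-induced chromatin protein, rose from 5.38, 5.66 and 5.80 to 12.82, 13.18 and 12.82 (160-fold, 7.32 ± 0.40, adjusted p = 1.26e-07). Ddit3, which encodes the pro-apoptotic factor CHOP, rose from 6.41, 6.46 and 6.49 to 12.52, 13.04 and 12.94 (83.5-fold). Atf3, a repressor induced by ATF4, went from 5.17, 4.23 and 4.68 to 11.54, 12.34 and 11.95. All 3 TM animals lay more than 6 log2 units above every vehicle animal for each of these genes. Each is among the largest rises, for which groups that do not overlap were a condition.

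Atf4 rose 4.68-fold (10.42, 10.29 and 9.93 to 12.42, 12.41 and 12.49), more than in wild-type livers (interaction 1.5, adjusted p = 0.0121). Trib3, a pseudokinase induced by CHOP, rose 19.8-fold. The 2 regulatory subunits that direct phosphatase 1 to eIF2a moved in opposite directions. Ppp1r15a, the stress-induced subunit GADD34, rose from 8.13, 8.04 and 7.70 to 11.81, 11.85 and 11.41 (13.3-fold). Ppp1r15b, the constitutive subunit CReP, fell from 9.99, 9.86 and 9.76 to 8.52, 8.23 and 8.94 (2.47-fold). Both differed from wild-type livers, by 2.49 (adjusted p = 0.00551) and -1.04 (adjusted p = 0.0222). Fgf21, a fasting and stress hormone of the liver, was at 5.52, 5.73 and 5.18 against 7.88, 8.35 and 5.78, with TM animal 3 close to the vehicle animals (1.86 ± 0.52, adjusted p = 0.0171). Its call was lost without vehicle animal 3 (1.71), TM animal 1 (1.59) or TM animal 2 (1.35).

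ATF4 acts with CHOP or other partners at composite sites that read TGATGNAA, and the stretches that hold this word, in capitals, are shown for 3 of these genes, with RefSeq coordinates as above.
Nupr1, chr7:126625553-126625600, minus strand: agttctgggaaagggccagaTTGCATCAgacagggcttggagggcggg
Atf3, chr1:191183416-191183463, minus strand: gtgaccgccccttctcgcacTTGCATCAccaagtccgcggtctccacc
Fgf21, chr7:45615602-45615649, minus strand: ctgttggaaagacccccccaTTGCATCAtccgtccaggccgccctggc

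All 3 hold the word on the opposite strand, as the same 8 letters. It was found upstream of 5 of 15 genes of the pathway with a promoter (33.3%) and in 2.84% of the 14452 genes searched. The share was 2.22% of risen and 2.51% of fallen genes, so that among risen genes was no higher than among all genes searched.

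Genes that supply amino acids to translation rose with ATF4. Of 16 genes of amino acid synthesis and import, 8 rose and 1 fell (median 1.15). Psat1, a serine synthesis enzyme, went from the dim range, 4.03, 4.32 and 4.02, to 11.16, 11.16 and 11.10, and Aldh18a1, which starts proline synthesis, from 3.88, 4.07 and 4.52 to 9.85, 10.01 and 9.75. Asns, asparagine synthetase, rose 6.25-fold. Phgdh, the enzyme that precedes Psat1 in the serine pathway, was not called (-0.17 ± 0.14), although it was called as a fall with the Btf3 and Ppia shift (-0.68). Shmt2, the mitochondrial serine hydroxymethyltransferase, fell from 11.46, 11.25 and 11.09 to 9.71, 9.95 and 9.55 (2.90-fold). Of 19 cytosolic aminoacyl-tRNA synthetases, which charge tRNAs, 17 rose and none fell (median 1.59), and 8 rose more than in wild-type livers, where 6 had risen. Gars, for glycine, went from 8.40, 8.32 and 8.07 to 10.66, 11.09 and 11.09 (6.42-fold, 2.68 ± 0.24), and Lars, for leucine, rose 5.85-fold. Aars, for alanine, was not called, at 10.51, 10.53 and 10.47 against 10.14, 10.47 and 10.36, although it was called as a fall with the Btf3 and Ppia shift (-0.7).

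Translation genes beyond the charging step rose by smaller amounts. Of 40 initiation factors, 28 rose and 1 fell (median 0.92), and 33 of 42 cytosolic ribosomal proteins rose and none fell (median 0.90). With the Btf3 and Ppia shift, 15 initiation factors and 11 ribosomal proteins rose. Eif6, which keeps ribosomal subunits apart, rose from 10.31, 10.15 and 10.05 to 12.62, 12.78 and 12.67 (5.73-fold). Eif4ebp1, a translation repressor induced by ATF4, rose from 10.31, 10.23 and 10.22 to 12.15, 12.33 and 12.74 (4.45-fold), while Eif4ebp2, its paralog, fell by 0.82, which was not called with the spike-in shift (-0.34). Among ribosomal proteins the largest difference was that of Rpl12 (5.38, 5.36 and 4.80 to 7.92, 7.43 and 7.86), which may share sequence with pseudogenes, and the probe sets of this family are uncertain for that reason. Of 76 mitochondrial ribosomal proteins, 34 rose and 5 fell (median 0.38, or -0.14 with the Btf3 and Ppia shift), for example Mrps18b by 2.65 and Mrpl49 by -1.88.

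The oxidative phosphorylation subunits, encoded in the nucleus, had 1 of 57 risen and 17 fallen as deposited (median -0.30). With the Btf3 and Ppia shift none rose and 45 fell, with the spike-in shift 6 rose and 5 fell (median 0.18), and without animal 1 of each group 9 fell. Ndufa9, of complex I, fell most, from 11.34, 11.25 and 10.91 to 8.40, 8.37 and 8.71 (6.37-fold, adjusted p = 8.3e-07), and this fall was larger than in wild-type livers (interaction -2.04, adjusted p = 0.0006). Of 31 proteasome subunits 5 rose, Psmd8, Psmc2, Psmd11, Psmb6 and Psmd13, a share (16.1%) near the 15.2% of all genes. The median was 0.19, and 1 rose with the Btf3 and Ppia shift and 20 with the spike-in shift. With the probe sets of a gene averaged 3 rose, and Psmd11 (0.48) and Psmd13 (0.25) were not called. Psmd13 had probe sets called in both directions. The largest rise was 4.53-fold, for Psmd8.

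**Figure D2:**
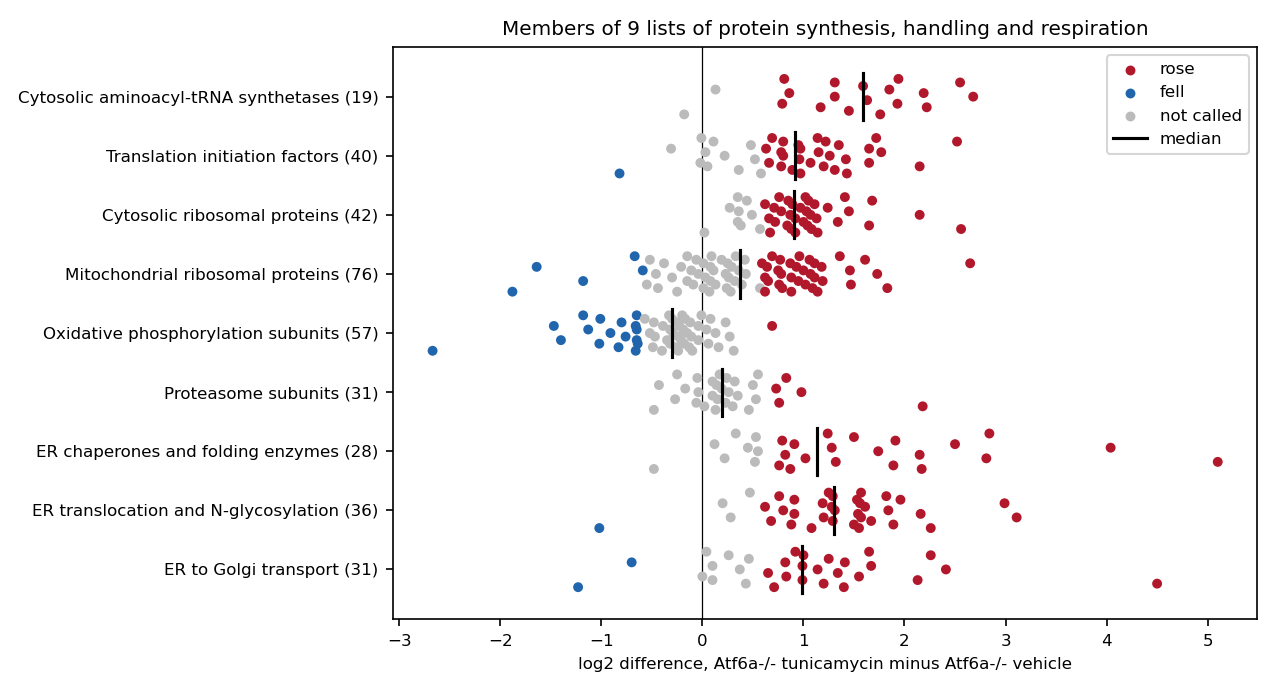
Log2 difference between Atf6a-/- TM and Atf6a-/- vehicle livers on the x axis for every measured gene (points) of 9 lists, with the number of genes in parentheses, colours for genes that rose, fell or were not called, and a bar at each list's median. The tRNA synthetases have the highest median (1.59) and oxidative phosphorylation subunits the lowest (-0.30, which became 0.18 with the spike-in shift).

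Other stress lists were mixed, and their counts are to be read beside the 15.2% of all genes that rose and the 12.8% that fell. Of 13 AP-1 and immediate early factors, 8 rose and none fell (median 1.64), among them Myc, from 6.43, 6.76 and 7.08 to 10.15, 10.46 and 10.45 (12.1-fold), and Fos by 2.65. Of 18 p53 and apoptosis genes, 6 rose and 3 fell, Gadd45g, Fas and Bak1 (median 0.19, or -0.33 with the Btf3 and Ppia shift). Cdkn1a, the cell cycle inhibitor p21, rose from 5.72, 5.72 and 5.82 to 12.03, 11.14 and 11.23 (52.4-fold), and more than in wild-type livers (interaction 3.6, adjusted p = 0.0376). Gadd45a rose 28.8-fold, whereas its paralog Gadd45g fell, from 7.93, 7.43 and 8.89 to 6.90, 6.82 and 7.23, where it had a wild-type difference of 1.54 (interaction -2.64, adjusted p = 0.00377). The Gadd45g fall was not called without vehicle animal 3 (-0.70), TM animal 1 (-1.06) or TM animal 2 (-1.02). That of Bak1 was not called without TM animal 2 (-0.51) or with the probe sets of a gene averaged (-0.44). With the spike-in shift 10 of these 18 genes rose and none fell, with Gadd45g at -0.62, Fas at -0.33 and Bak1 at -0.21. Targets of the antioxidant factor NRF2 were split, with 3 of 14 risen and 4 fallen (median -0.15, or 0.33 with the spike-in shift). Srxn1, which repairs oxidised peroxiredoxin, rose 24.9-fold and Hmox1, heme oxygenase, 4.61-fold, while Gsta4, a glutathione transferase for lipid aldehydes, fell from 10.79, 10.89 and 10.43 to 6.03, 5.38 and 5.53 (33.3-fold) and Gclc, of glutathione synthesis, 4.11-fold. Nfe2l2, which encodes NRF2, also rose, by 0.75, and Gclm and Ephx1 fell. Of 16 autophagy and lysosome genes 4 rose (Sqstm1, Ctsl, Atg12 and Becn1) and 5 fell (Lamp1, Ctsb, Lamp2, Ulk1 and Atg7), with a median of -0.18, or 0.30 with the spike-in shift. Sqstm1, the cargo receptor p62, rose by 1.75, and Lamp1, a lysosomal membrane glycoprotein, fell by 2.55. Of 15 heat shock proteins of other compartments 6 rose and 3 fell, Hspa1b, Hspa4l and Dnaja1 (median 0.37, or -0.15 with the Btf3 and Ppia shift). The Dnaja1 call was lost without vehicle animal 1 (-0.58) or 2 (-0.58) and without TM animal 1 (-0.53) or 3 (-0.58). The small heat shock protein Hspb1 rose 5.52-fold. Of 21 cell division genes, 2 rose (9.52%), Mcm7 and Pcna, and 1 fell (4.76%), Cdk1 (median -0.03, or 0.45 with the spike-in shift). Both shares were below those over all genes.

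Liver transcription factors fell. Of 22 factors and cofactors, none rose and 16 fell, with a median of -1.68, and 11 of the 22 had a lower response than in wild-type livers by the interaction test. Hnf4a, the nuclear receptor that maintains hepatocyte identity, went from 12.27, 12.45 and 12.11 to 11.22, 11.36 and 10.71 (2.27-fold lower, -1.18 ± 0.16, adjusted p = 0.000118), with the groups apart, and its interaction was not called (-0.47 ± 0.23, adjusted p = 0.261). Ppara, the fasting receptor that activates fatty acid oxidation, fell further, from 11.14, 11.30 and 11.10 to 6.24, 6.68 and 5.90 (30-fold). Nr1i3, the xenobiotic receptor CAR, fell 28-fold, from 10.67, 9.76 and 9.87 to 5.43, 4.87 and 5.58. Both falls were larger than in wild-type livers, by -3.70 (adjusted p = 7.81e-06) and -3.89 (adjusted p = 0.000204).

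Cebpa, which drives gluconeogenic and lipogenic genes, fell from 12.06, 11.76 and 11.75 to 7.81, 9.07 and 8.43 (10.7-fold), and Srebf1, the lipogenic factor, from 10.33, 10.46 and 10.34 to 7.33, 7.17 and 6.87 (9.52-fold). The Cebpa fall was larger than in wild-type livers (interaction -2.16, adjusted p = 0.00161), and for Srebf1 no such difference was detected (-0.34 ± 0.27, adjusted p = 0.56). Ppargc1a, the coactivator of fasting metabolism, went from 7.90, 7.70 and 6.40 to 3.66, 3.81 and 4.37, in the dim range, against a wild-type difference of 0.53. Its relative Ppargc1b fell 6.60-fold. Srebf2, of cholesterol synthesis, fell 1.98-fold, a call lost with the spike-in shift (-0.51). Foxa2, a pioneer factor, was at 8.55, 8.60 and 8.13 against 7.21, 8.28 and 7.70, with overlapping groups.

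**Figure D3:**
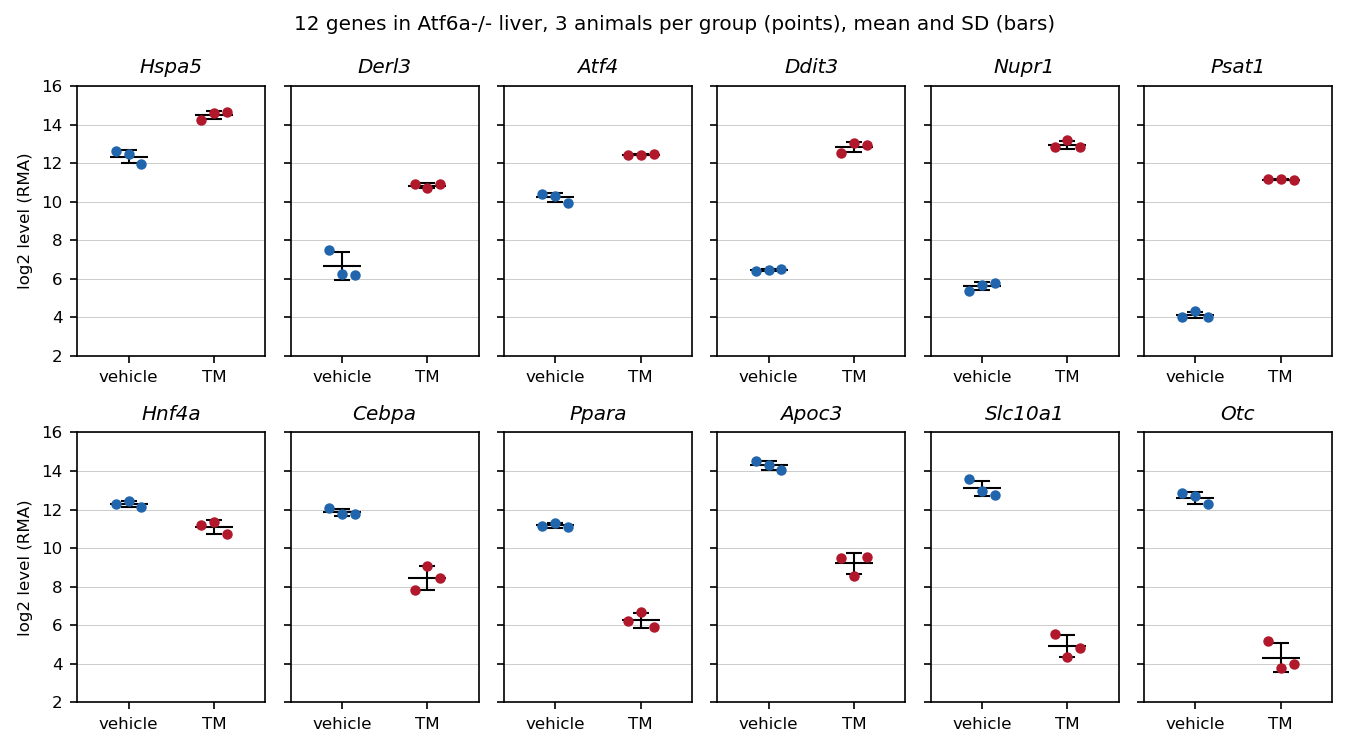
Log2 RMA level on the y axis in the 3 Atf6a-/- vehicle and 3 Atf6a-/- TM livers for 12 genes, 1 panel each; points are animals and bars the mean and SD. All 3 TM animals lie above all 3 vehicle animals for the 6 genes of the upper row and below them for the 6 genes of the lower row. The 12 genes were picked for display. Ddit3, Nupr1, Psat1, Slc10a1 and Otc are also among the largest changes, for which groups that do not overlap were a condition.

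Genes were also ordered by the brightness of their probe set in wild-type vehicle livers, which do not enter this contrast. Of the 100 brightest, at 13.34 to 14.77, none rose and 72 fell in Atf6a-/- TM livers (median -1.58), and 18 fell in wild-type livers. With the spike-in shift, 62 of the 100 fell and 9 rose. Brightness depends on the probes as well as on the amount of mRNA, so this is not an order of abundance, and a probe set near the highest value in the table, 14.91, has more room to fall than to rise. As deposited, 58% of genes at 11.61 to 13.33 fell, and 37.3% of those at 9.43 to 11.61. The share was 23.2% at 7.23 to 9.43 and 4.45% at 2.65 to 7.23. In the same order, 14%, 23.5%, 27.8% and 10.2% rose. The 12.8% over all genes is therefore not the share for bright genes. Whether lists of bright genes fell more often than other genes as bright was not tested.

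In fatty acid oxidation and ketogenesis, 19 of 22 members fell and none rose (median -1.22; 11 fell with the spike-in shift). Acaa1b, the peroxisomal thiolase, fell from 13.72, 13.89 and 13.71 to 6.50, 5.06 and 5.02 (304-fold, -8.25 ± 0.34, adjusted p = 1.95e-08). Bdh1, which makes the ketone body 3-hydroxybutyrate, fell 48.2-fold, and Cpt1a, the gate of mitochondrial oxidation, from 11.41, 11.55 and 11.33 to 9.29, 9.37 and 9.54 (4.08-fold). Acadm, the medium-chain dehydrogenase, was an exception at 12.64, 12.35 and 12.05 against 11.92, 12.36 and 12.63. In wild-type livers the Cpt1a difference was -0.11 (interaction -1.92, adjusted p = 0.000154).

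Fatty acid and triglyceride synthesis fell as well, with 14 of 21 members lower and 1 higher (median -2.85). Thrsp, a lipogenic regulator, fell from 12.92, 12.01 and 11.22 to 6.15, 5.55 and 7.20 (53.7-fold), Fads2, the delta-6 desaturase, 24.4-fold and Fasn, fatty acid synthase, 8.97-fold. Acaca, acetyl-CoA carboxylase, was not called at 9.27, 8.58 and 8.61 against 9.12, 9.0 and 9.64. The 2 enzymes that complete triglycerides went in opposite directions: Dgat2 fell from 12.76, 12.40 and 12.50 to 8.23, 8.96 and 9.42 (12.9-fold), and Dgat1 rose from 8.99, 8.81 and 8.71 to 9.53, 9.71 and 9.83 (1.81-fold), a call lost with the Btf3 and Ppia shift (0.34). Of the 9 metabolic genes that the study follows, 8 fell (median -3.16).

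Proteins of the lipid droplet were split: 5 of 19 rose and 8 fell (median -0.33, or 0.15 with the spike-in shift). Plin2, which coats droplets, rose from 12.66, 12.73 and 12.56 to 14.21, 14.46 and 14.44 (3.29-fold) with a wild-type difference of -0.02 (interaction 1.74, adjusted p = 0.00641). Hilpda, an inhibitor of triglyceride lipase, rose 10-fold, from 6.02, 5.65 and 5.40 to 9.54, 8.79 and 8.72, and Cidec, which enlarges droplets, went from the dim range, 4.19, 4.19 and 4.25, to 6.50, 7.03 and 6.68. Abhd5 and Plin3 were the others that rose. Plin5, the droplet protein of oxidative tissues, fell 10.7-fold, from 9.97, 9.82 and 9.01 to 6.25, 5.63 and 6.67, and Fabp1, the fatty acid carrier of the hepatocyte cytosol, from 14.05, 14.48 and 14.14 to 8.28, 6.45 and 6.85 (131-fold).

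Of 19 apolipoproteins and lipoprotein assembly factors, 16 fell and 1 rose (median -2.04), and 13 had a lower response than in wild-type livers. Apoc3, an inhibitor of triglyceride clearance, fell from 14.53, 14.30 and 14.08 to 9.51, 8.58 and 9.56 (33.9-fold), and Apoa5, which promotes it, from 13.93, 13.73 and 13.32 to 8.64, 9.97 and 9.96 (17.6-fold). Apob, the scaffold of very low density lipoprotein, fell 4.88-fold and Mttp, which loads lipid onto it, 3.98-fold. Angptl4, an inhibitor of lipoprotein lipase, was the member that rose, from 11.27, 10.79 and 10.96 to 12.11, 12.39 and 12.62. Of 18 genes of cholesterol synthesis and uptake, 15 fell and 1 rose (median -2.04). Idi1, an isoprenoid isomerase, fell 18.3-fold, while Lss, which closes the sterol rings, rose 4.20-fold, from 9.74, 9.0 and 8.81 to 11.51, 11.18 and 11.08.

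Bile acid genes fell in 14 of 19 cases and rose in 1 (median -2.65). Slc10a1, the basolateral uptake transporter NTCP, fell from 13.57, 12.96 and 12.78 to 5.53, 4.38 and 4.83 (291-fold, -8.18 ± 0.26, adjusted p = 3.62e-09), a fall larger than in wild-type livers (interaction -6.52, adjusted p = 2.08e-06). Slco1b2, a second uptake transporter, fell 83-fold. Cyp7a1, the rate-limiting enzyme of bile acid synthesis, went from 10.99, 10.18 and 10.33 to 5.05, 4.52 and 4.62 (54.5-fold), and Cyp8b1, which sets the share of cholic acid, from 12.03, 11.87 and 12.38 to 5.32, 5.27 and 7.10, with a wild-type difference of -0.08 (interaction -6.12, adjusted p = 0.000419). Abcc4, an efflux pump of the sinusoidal face, rose from 6.69, 5.40 and 5.00 to 10.34, 9.98 and 7.49, with animal 3 lowest of the TM livers.

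Drug metabolism followed. Of 55 cytochromes P450 of families 1 to 4, 31 fell and 3 rose (median -1.40), and of 35 conjugating enzymes 18 fell and 4 rose (median -1.15). Cyp3a25 fell from 13.82, 13.80 and 13.33 to 7.85, 6.92 and 7.78 (70.3-fold), Cyp2c68 56.7-fold, and Ugt2b5, a glucuronosyltransferase, from 13.20, 13.49 and 13.16 to 6.54, 6.28 and 6.46 (116-fold). Cyp2b10, a target of CAR, rose from 10.58, 7.86 and 7.57 to 12.33, 11.95 and 12.00, in the same livers in which Nr1i3 fell. Cyp2a12 and Cyp4a31 also rose, as did the glutathione transferases Gstt2, Gstm2, Gstm4 and Gstp3. The Cyp2a12 call was lost without vehicle animal 2 (0.77) or 3 (0.73) or TM animal 2 (0.80) or 3 (0.84), and the Gstm2 call without vehicle animal 3 (0.85). Genes of P450 and transferase families share sequence, so that probe sets of close relatives can report more than 1 of them.

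In glucose and glycogen metabolism 11 of 15 genes fell and 1 rose (median -2.15). Pck1, the first committed enzyme of gluconeogenesis, went from 13.36, 13.31 and 12.95 to 8.97, 6.48 and 6.59 (58-fold), against a wild-type difference of -0.04 (interaction -5.82, adjusted p = 0.000369), and Slc2a2, the hepatocyte glucose transporter GLUT2, fell 27.5-fold. G6pc, glucose-6-phosphatase, was not called at 11.86, 10.67 and 11.08 against 11.12, 11.65 and 10.38. Pdk4, which holds back pyruvate oxidation, rose from 5.48, 5.27 and 5.38 to 8.81, 8.57 and 8.60, and was not called when animal 1 was left out of both groups (3.26). Among 10 transporters and isozymes of glycolysis typical of other tissues, 2 rose (20%) and 1 fell (10%), near the 15.2% and 12.8% of all genes. Their median was 0.12, or -0.40 with the Btf3 and Ppia shift. Slc2a1, the ubiquitous transporter GLUT1, rose 8.42-fold, Aldoa, aldolase A, rose by 1.32, and Ldha, lactate dehydrogenase A, fell 3.99-fold. Amino acid catabolism and the urea cycle had 25 of 28 genes fallen and none risen (median -2.24), with a response below the wild-type one in 18. Otc, of the urea cycle, went from 12.85, 12.70 and 12.28 to 5.17, 3.79 and 3.97, in the dim range, and Haao, of tryptophan breakdown, fell 57.8-fold. Tat, tyrosine aminotransferase, was not called at 13.28, 12.89 and 12.64 against 12.92, 13.24 and 12.81.

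Secreted plasma proteins had medians among the lowest. Of 21 acute-phase proteins, 16 fell and 1 rose (median -3.21), and of 27 coagulation and complement proteins 24 fell and none rose (median -2.88), 19 of the latter with a lower response than in wild-type livers. Hp, haptoglobin, fell from 14.34, 14.15 and 14.20 to 8.60, 8.08 and 9.46 (45.9-fold), with a wild-type difference of -0.40 (interaction -5.12, adjusted p = 9.46e-06). Saa4, a constitutive serum amyloid, fell 86.1-fold, F7, coagulation factor VII, from 11.56, 10.94 and 11.07 to 5.15, 5.04 and 5.25 (66-fold), and Klkb1, plasma prekallikrein, 65.2-fold. Some abundant mRNAs of the same secretory kind were not called. Alb, albumin, was at 14.83, 14.76 and 14.67 against 14.15, 14.22 and 14.43, with the groups apart but the fold under the threshold (-0.48 ± 0.10, adjusted p = 0.00242), and it was called with the Btf3 and Ppia shift (-1.0) and after cyclic loess (-0.60). Serpinc1, antithrombin, had a difference of -0.49 ± 0.11. Apcs, serum amyloid P, rose from 12.37, 11.06 and 12.08 to 13.22, 13.47 and 13.46 (2.92-fold). Of 11 carriers and protease inhibitors 6 fell and Serpina7, thyroxine-binding globulin, rose (median -0.70; 3 fell with the spike-in shift).

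Of 11 genes of the growth hormone and IGF axis, 9 fell and 2 rose, which is every member, with a median of -0.90 (5 fell with the spike-in shift). Igf1 fell 7.94-fold, from 12.68, 12.48 and 12.43 to 9.11, 9.49 and 10.02, Igfbp2 17.1-fold and Igfals, which stabilises circulating IGF, 17-fold. Igfals fell by 4.04 in wild-type livers (interaction -0.05, adjusted p = 0.944). Igfbp1, a stress-induced IGF carrier, rose 4-fold (2.00), a call lost without vehicle animal 2 (1.71). Socs2, which dampens growth hormone signals, rose from 7.55, 8.45 and 7.23 to 9.04, 9.0 and 9.78, although it fell by 2.61 in wild-type livers (interaction 4.14, adjusted p = 0.00158). Its rise was not called without vehicle animal 1 (1.43) or 3 (1.27) or TM animal 3 (1.28). Of 15 clock genes 4 rose and 8 fell (median -0.73; 4 fell with the spike-in shift). Dbp, an output factor, fell from 11.61, 11.76 and 11.48 to 6.08, 6.44 and 6.74 (36.8-fold), and Nfil3, which opposes it at shared sites, rose from 6.72, 7.26 and 6.80 to 9.92, 11 and 9.80 (9.93-fold). Arntl, the clock activator BMAL1, rose 5.76-fold, and Clock and Cry1 rose too. Livers were taken in daytime per the methods, and the hour is not given per animal.

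Of 11 sex-dependent liver genes none passed the test, at a median of -1.85. Hsd3b5, a male-enriched steroid enzyme, was at 4.45, 11.82 and 11.98 in vehicle and 4.13, 3.90 and 4.57 in TM livers, all in the dim range (-5.22 ± 2.12, adjusted p = 0.0934), with its low vehicle value in the animal of high Xist. Without that animal in either group the difference was -7.67, and it was called. Of 9 fetal and progenitor liver genes 2 rose (22.2%, beside 15.2% of all genes), with a median of 0.04, or -0.48 with the Btf3 and Ppia shift. Krt18 rose 2.22-fold and Krt8 2.76-fold, both keratins that adult hepatocytes also make. The Krt8 call was lost without vehicle animal 2 (1.48) or 3 (1.36), and without TM animal 2 (1.35) or 3 (1.42).

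The largest single changes were chosen from genes whose groups did not overlap and whose higher mean was at least 7. Beside Nupr1, Atf3, Psat1 and Ddit3, the rises included Acot5, a peroxisomal acyl-CoA thioesterase, from 3.06, 3.03 and 3.14, dim, to 8.92, 8.72 and 9.81, with a wild-type difference of 0.01 (interaction 6.07, adjusted p = 1.31e-06). Slc16a6, a ketone body exporter, rose from 4.68, 4.70 and 5.03 to 10.04, 9.77 and 9.93 (34.5-fold), Pmm1, a phosphomannomutase, 35.3-fold, Smox, spermine oxidase, 31.8-fold and Nucb2, the precursor of nesfatin, 33.5-fold. Hhipl1 and the unnamed transcript 5430416N02Rik, which rose 33.5-fold, were also in this group. Nucb2 rose by 6.01 in wild-type livers (interaction -0.94, adjusted p = 0.288). The falls included carboxylesterases: Ces1f went from 12.32, 12.41 and 12.25 to 4.21, 3.59 and 3.70, Ces1c from 14.09, 13.83 and 13.51 to 6.55, 5.04 and 4.61 (340-fold), and Ces1d and Ces1g behaved in the same way, with TM levels in the dim range. Steroid and detoxification enzymes followed, with Inmt, a methyltransferase, down 181-fold, Akr1c6, a hydroxysteroid dehydrogenase, 166-fold, and Akr1c14 and Ugt2a3 to dim levels. Car3, carbonic anhydrase 3, fell from 14.15, 14.13 and 13.73 to 8.17, 5.63 and 7.64 (116-fold), and Proz, protein Z, and Dpys, of pyrimidine breakdown, from above 10 to dim levels in every TM animal. Of the called genes, 107 rose and 312 fell by more than 8-fold, and 45 and 156 by more than 16-fold.

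Markers of other cells were read beside these changes. Their counts are to be read beside the 15.2% of all genes that rose and the 12.8% that fell. Of 8 hepatocyte markers 6 fell and none rose (median -1.31), and their summed level was 17.15 to 17.40 in vehicle and 15.84 to 16.51 in TM livers; Alb and Tat were not called. Of 14 Kupffer cell and macrophage markers 3 rose (21.4%) and 7 fell (50%), with a median of -0.65 (4 fell with the spike-in shift). Their summed levels were 12.50 to 13.01 in vehicle and 12.56 to 13.04 in TM livers. Cd14, a lipopolysaccharide receptor, rose from 6.21, 5.50 and 5.60 to 11.47, 11.72 and 10.99 (49.4-fold), and Cd68, a lysosomal macrophage protein, 8.42-fold. Clec4f, which marks resident Kupffer cells, was 1 of the 7 that fell, by 3.39-fold. Marco, a scavenger receptor, rose with overlapping groups, at 6.90, 6.02 and 6.72 against 8.88, 8.78 and 6.71, and its call was lost without vehicle animal 2 (1.32) or 3 (1.67) or TM animal 1 (1.20) or 2 (1.25). Of 9 neutrophil markers 2 rose (22.2%) and none fell (median 0.07, or -0.44 with the Btf3 and Ppia shift). S100a8 went from 5.07, 4.52 and 4.96 to 10.39, 8.26 and 9.91 and S100a9 from 5.78, 4.68 and 5.55 to 10.13, 7.59 and 9.48. The summed neutrophil level went from 8.22 to 8.36 in vehicle to 9.52 to 11.40 in TM livers. As a sum of unlogged values it is mostly S100a8 and S100a9 in TM livers, and does not show a rise of the other 7 markers, which were not called. Mpo, Camp, Ltf and Cxcr2 were dim in both groups. Of 16 inflammatory genes 5 rose (Cxcl2, Socs3, Ccl2, Cxcl1 and Tnfaip3) and 1 fell (Nfkbia), with a median of 0.60 (2 rose with the Btf3 and Ppia shift, 13 with the spike-in shift and 3 without animal 1), and Cxcl2, a neutrophil chemokine, went from the dim range, 3.28, 3.14 and 3.18, to 6.58, 4.57 and 6.71. The calls of Socs3 and Tnfaip3 were each lost without 4 of the 6 animals in turn, and the differences that remained were 0.99 to 1.36 and 0.47 to 0.71.

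None of 10 lymphocyte, 14 endothelial, 14 stellate, 5 cholangiocyte and 2 red cell markers rose on the scale as deposited. Those that fell were 1 lymphocyte marker (Cd79b), 4 endothelial markers (Stab2, Oit3, Gpr182 and Clec4g), 3 stellate markers (Col1a2, Reln and Colec11) and 1 red cell marker (Alas2). With the spike-in shift 1 lymphocyte, 2 endothelial, 4 stellate and 1 red cell marker rose, and the falls left were 1 endothelial and 1 red cell marker, with Cd79b (-0.25), Oit3 (-0.58), Gpr182 (-0.33), Clec4g (-0.25), Col1a2 (-0.52), Reln (-0.43) and Colec11 (-0.38) not called. With the Btf3 and Ppia shift none rose, and 6 lymphocyte, 11 endothelial, 6 stellate, 3 cholangiocyte and 1 red cell marker fell. The Col1a2 call was also lost without any of 5 of the 6 animals (-1.10 to -0.87), that of Gpr182 without vehicle animal 1 (-0.62) or 2 (-0.87) or TM animal 3 (-0.47), and that of Clec4g without TM animal 3 (-0.51). The spike-in shift took the endothelial median from -0.35 to 0.12, the stellate one from -0.06 to 0.42, the lymphocyte one from -0.15 to 0.33 and the cholangiocyte one from -0.11 to 0.37. The part of cell composition in the liver gene falls was not tested. Of 10 iron and metal genes 1 rose (10%) and 3 fell (30%), beside 15.2% and 12.8% of all genes (median -0.17, or 0.31 with the spike-in shift). Tfrc, the transferrin receptor, rose. Slc40a1, the iron exporter, Cp, ceruloplasmin, and Slc30a10, a manganese exporter, fell.

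**Figure D4:**
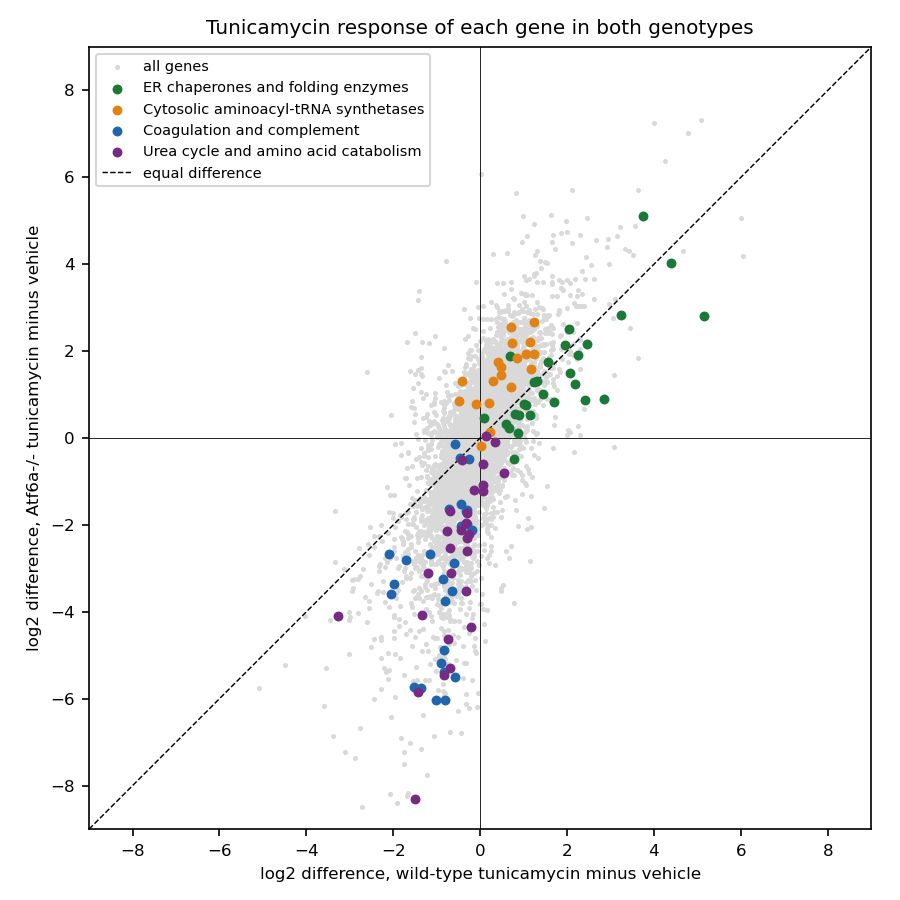
Log2 difference between TM and vehicle in wild-type livers on the x axis and in Atf6a-/- livers on the y axis for 18193 genes (n = 3 per group), with the members of 4 lists in colour and a dashed line of equal difference. Chaperones lie on both sides of the line, with Creld2 (5.15 and 2.81) below it and Fkbp11 (3.74 and 5.10) above it, and tRNA synthetases such as Lars (0.70 and 2.55) lie above it. Coagulation, complement, urea cycle and amino acid genes lie mostly below it, as F7 does (-0.80 and -6.04).

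The response of Atf6a-/- livers was tested against that of wild-type livers gene by gene. It was higher for 1376 genes and lower for 1218. The wild-type TM livers were uneven for some stress genes. Animal 2 was the highest of the 3 for Atf4 (10.67, 11.72 and 10.87), Lars (8.33, 9.74 and 8.39) and Cdkn1a (6.4, 10.34 and 8.4), and the lowest for Fos (6.65, 5.34 and 6.33). Wild-type differences of such genes are therefore means of unlike animals. In wild-type livers 1330 genes changed, of which 1182 changed in Atf6a-/- livers too, which is 88.9% of the wild-type list and 23.2% of the Atf6a-/- list. The direction was shared by 1167 of them and opposite for 15. Each genotype had its own vehicle group, so the lists share no arrays, although the fit pools the spread of all 12.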

How the data were processed

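Total RNA from mouse liver was hybridised by the authors to 12 Affymetrix mouse genome arrays, 1 animal each, in 4 groups of 3. Values were summarised by the authors with RMA and deposited on the log2 scale; the submitters' processing notes name affy and limma, with versions not given in the sources used here. They were used as deposited, without renewed normalization. No genome was aligned; the depth of an array has no read count, and 3 animals per group limit the precision. Columns were matched to samples by their labels. A linear model with 1 mean per group was fitted to all 12 arrays with limma 3.58.1 (lmFit, contrasts.fit, eBayes) in R 4.3.3, and p-values were adjusted by Benjamini-Hochberg over 45037 probe sets. A change needed an adjusted p under 0.05 and over 1.5-fold, and the interaction test used the same limits. The code was tested on simulated data.

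Of 45037 probe sets, 34945 carried 1 gene symbol in the platform annotation, 932 several and 9160 none; those with none or several were counted but not named. Levels of probe sets of different genes depend on the probes, and were set against each other only to order genes by brightness. The 50 gene lists hold 1028 measured members of 1182. Genes named were a fixed set of stress and metabolic genes, the 2 most changed members of each list, and the 15 largest rises and 15 largest falls with groups apart and a higher mean of at least 7, which made 133 genes. A further 90 lie outside that rule and were chosen after their values were seen. Members, lists and tests were chosen with earlier results of these data known. No set test was run. Motifs were searched in RefSeq promoters of GRCm38.p6, with symbols of 14452 array genes matched. Summed levels of marker lists are log2 of the sum of unlogged values. Alternatives were other scalings, filters, fold and p limits, the methods' t-test, the animal number as a block, and each animal left out; the list counts under other scalings were added after seeing the data.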

Additional observations from a re-analysis of the deposited data

Results flagged for a closer look

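Every gene here had a TM response in Atf6a-/- livers that differed from the wild-type response by limma's interaction test, and the value beside each is the Atf6a-/- minus the wild-type log2 difference. Among ER and glycosylation genes the response was lower for Creld2 (-2.34), Pdia4 (-1.94), Derl3 (-1.85), Dnajb11 (-1.54), Alg1 (-1.40), Erp44 (-1.26), Herpud1 (-1.22), Ero1b (-0.95), Pdia3 (-0.89), Creb3l3 (-0.86) and Sil1 (-0.75), and higher for Atf6 (1.75), Ero1a (1.20), Sec23b (1.04) and Alg12 (0.99). In the ATF4 and amino acid group it was higher for Ppp1r15a (2.49), Psat1 (2.24), Nupr1 (2.23), Lars (1.85), Atf4 (1.5), Gars (1.46) and Eif4ebp1 (1.33) and lower for Ppp1r15b (-1.04) and Shmt2 (-0.97). Translation, proteasome and mitochondrial genes were divided in the same manner, with Rpl12 (1.93), Eif6 (1.55), Mrps18b (1.46), Psmc2 (1.44), Psmd8 (1.41), Rps27 (1.33), Psmd11 (1.08) and Psmb6 (0.80) higher and Ndufa9 (-2.04) and Sdhd (-1.17) lower.

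Among other stress genes, higher responses were found for Cdkn1a (3.6), Srxn1 (3.56), Hspb1 (2.4), Gstp3 (1.97), Myc (1.94), Mcm7 (1.92), Gstm4 (1.75), Hmox1 (1.71), Hsph1 (1.66), Sqstm1 (1.48) and Nfe2l2 (1.20), and lower ones for Gsta4 (-2.77), Gadd45g (-2.64), Lamp1 (-2.01), Ctsb (-1.19) and Ulk1 (-0.93). Immune and inflammatory genes with a higher response were Cd14 (4.80), Cd68 (2.70), Cxcl2 (2.48), S100a8 (2.37), Ccl2 (1.25) and Tnfaip3 (1.17).

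Liver factors and regulators with a lower response were Dbp (-4.47), Ppargc1a (-3.92), Nr1i3 (-3.89), Ppara (-3.70), Ppargc1b (-2.53) and Cebpa (-2.16). In lipid and bile acid metabolism the lower ones were Acaa1b (-6.57), Slc10a1 (-6.52), Cyp8b1 (-6.12), Fabp1 (-5.42), Slco1b2 (-5.06), Apoc3 (-4.06), Bdh1 (-4.05), Apoa5 (-3.95), Cyp7a1 (-3.49), Dgat2 (-3.26), Fads2 (-2.62), Plin5 (-2.62), Stard4 (-2.47), Cpt1a (-1.92), Apob (-1.84) and Mttp (-1.58), and the higher ones Acot5 (6.07), Hilpda (2.76), Cidec (2.69), Plin3 (2.31), Plin2 (1.74), Angptl4 (1.04) and Abhd5 (0.87). Among enzymes of detoxification, glucose and amino acids, lower responses were those of Otc (-6.80), Akr1c14 (-6.52), Ces1c (-6.50), Ces1d (-6.11), Pck1 (-5.82), Cyp3a25 (-5.80), Ces1f (-5.78), Ugt2b5 (-5.78), Inmt (-5.74), Ugt2a3 (-5.46), Dpys (-5.08), Cyp2c68 (-4.96), Akr1c6 (-4.49), Haao (-4.42), Slc2a2 (-4.38), Ces1g (-4.11), Car3 (-3.48), Tdo2 (-3.20), Cyp2e1 (-2.38) and Ldha (-1.0), and higher ones those of Slc16a6 (4.13), Pmm1 (3.50), Smox (3.02), Slc2a1 (2.44) and Aldoa (1.73). Secreted proteins and the growth hormone axis had lower responses for Proz (-5.79), F7 (-5.25), Hp (-5.12), Klkb1 (-5.01), Saa4 (-4.37), Serpina6 (-3.99), Igfbp2 (-3.36), Afm (-3.23) and Igf1 (-1.48), and higher ones for Socs2 (4.14) and Hhipl1 (3.69). Psat1, Acot5, Cidec, Hhipl1, Cxcl2 and Ccl2 were dim in Atf6a-/- vehicle livers, and Ppargc1a, Otc, Akr1c14, Ces1d, Ces1f, Ces1g, Ugt2a3, Proz and Dpys in Atf6a-/- TM livers, so their values rest on levels near the array background.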

How the results depend on the processing

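The number of changed probe sets (9480) went to 20714, with 1428 genes risen and 7637 fallen, when arrays were shifted by Btf3 and Ppia, and to 16744, with 6280 risen and 1393 fallen, when shifted by the spike-ins. A limit of 2-fold gave 5677 probe sets, 1658 risen, 1498 fallen and 1700 genes with an interaction, and an adjusted p under 0.01 gave 1356 of the last. Both limits keep fewer genes by construction; the cause of the effect of the shifts was not tested. Leaving out each Atf6a-/- animal in turn gave 9052 to 9340 probe sets, 2525 to 2812 genes risen, 2188 to 2342 fallen, 2038 to 2344 with an interaction and 67 to 74 of the 100 brightest genes fallen. Without wild-type TM animal 2, the wild-type animal left out, the counts were 9642, 2837, 2359, 3489 and 72; the others were not left out in turn. Of the counts of list members, 15 lists moved by more than 1.5 times with the Btf3 and Ppia shift, 16 with the spike-in shift, 4 without animal 1 of both groups and 3 with the mean of the probe sets of a gene, a check chosen after seeing the data. Of 50 list medians, 18 changed sign under an alternative.

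The sign of genes that had small differences turned with the Btf3 and Ppia shift for Acaca (-0.08), Canx (-0.19), Sil1 (-0.39) and Tat (-0.46), and with the spike-in shift for Xbp1 (0.34), Aars (0.30), Acadm (0.44), Erp44 (0.00), G6pc (0.33) and Phgdh (0.31). Without animal 1 of both groups it turned for Xbp1 (0.12), Acadm (0.30) and G6pc (0.14), after quantile normalization for Acadm (0.08), after cyclic loess for Tat (-0.06), and with the mean of the probe sets for Cxcl1 (-0.11) and Phgdh (0.23). With single animals left out, the difference ran from -0.20 to 0.15 for Acadm, from -0.45 to 0.18 for G6pc, from -0.10 to 0.22 for Tat and from -0.25 to 0.02 for Xbp1. Some genes not called as deposited were called with a shift. Among them, Herpud1 (-1.2), Foxa2 (-1.21), Erp44 (-0.99) and Serpinc1 (-1.0) fell with the Btf3 and Ppia shift. Acaca (0.91), Canx (0.81) and Sil1 (0.6) rose with the spike-in shift. Of 223 named genes, 144 kept both the call and the sign of the difference throughout. Genes that were not called but turned in sign are not among the 144.

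Animal numbers are shared between the groups, but the deviations of same-numbered vehicle and TM animals correlated at 0.181, 0.111 and 0.035, and TM animal 3 correlated best with vehicle animal 2 (0.087), so the numbers were not taken to pair animals. With the number as a replicate block, 9590 probe sets changed, 2815 genes rose, 2362 fell and 2723 had an interaction. The methods' t-test gave 2741 and 2256 genes unadjusted and 2164 and 1708 after Benjamini-Hochberg. RMA levels near the array background compress differences, and 44 genes had probe sets called in both directions.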
